A study of Homo sapiens and Mus musculus with 21 samples.

Results

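The 10 genes described here are CA9 and 9 others that belong to the response of human cells to low oxygen, namely CA12, ANKRD37, VEGFA, ADM, NDRG1, BNIP3, EGLN3, P4HA1 and the factor HIF1A. They were taken as a named list, chosen with earlier results of these data known. They were looked up by symbol in a table of human transcript abundance, where they make up 10 of 58381 identifiers. The shares of all tested genes given beside their counts are therefore descriptions and do not test an excess in the list. Oxygen was not measured in the files used here, so the name of the list says what the genes are known for and not what the tumours experienced. All 10 genes passed the filter for testing, which asked for at least 1 TPM (a length-scaled share of all human transcripts of a library) in at least 3 libraries. CA12 reached 1 TPM in SW480 libraries only, so its passing the filter rests on the line in which it is higher.

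The tumours grew from SW480 and SW620, colorectal adenocarcinoma lines, in the caecum wall of immunodeficient NSG mice and were harvested on day 28. SW480 dnLEF1 tumours came from cells given dominant-negative LEF1, a LEF1 that cannot take up β-catenin, by lentivirus, and SW480 Mock tumours from cells given a mock lentivirus. SW620 dnLEF1 and SW620 Mock tumours were made in the same ways. SW620 LRP6KO tumours came from cells transfected with CRISPR against LRP6, a Wnt co-receptor, then selected with puromycin and sorted for low LRP6 protein, and SW620 Cas9 tumours from cells that were mock transfected and sorted. Each of the 6 groups had 3 libraries, made with Smart-seq2 (a full-length cDNA method) from pieces of whole frozen caecum, which hold mouse cells too. The study calls them biological triplicates, but the labels do not tie each library to its own animal, so p-values measure the spread between these libraries. In the main fit that spread is pooled for each gene over all 6 groups, and so over both lines.

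In cells with enough oxygen, prolyl hydroxylases of the EGLN family mark the HIF alpha subunits, HIF1A and EPAS1, for destruction through VHL. When oxygen falls, the alpha subunits persist, pair with ARNT and switch on genes that carry the core motif RCGTG, where R is A or G. CA9 is among the targets that respond most steeply, and it is widely used as a marker of hypoxic tumour tissue, although normal gut epithelium expresses it too.

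CA9 (ENSG00000107159.12, chr9:35673856-35681159, plus strand, GRCh38) and CA12 (ENSG00000074410.13, chr15:63321378-63382161, minus strand) encode membrane enzymes that hydrate CO2 outside the cell. ANKRD37 (ENSG00000186352.8, chr4:185396021-185400628, plus strand) encodes an ankyrin repeat protein. VEGFA (ENSG00000112715.21, chr6:43770184-43786487, plus strand) and ADM (ENSG00000148926.9, chr11:10304680-10307397, plus strand) encode secreted signals to vessels, an endothelial growth factor and the vasodilator adrenomedullin. NDRG1 is a stress-induced cytoplasmic protein, and BNIP3 (ENSG00000176171.11, chr10:131966455-131982013, minus strand) sits in the outer mitochondrial membrane and promotes mitophagy. EGLN3 (ENSG00000129521.13, chr14:33924231-34462774, minus strand) is itself a prolyl hydroxylase and so a feedback enzyme of the pathway. P4HA1 (ENSG00000122884.12, chr10:73007217-73096974, minus strand) is a catalytic subunit of the enzyme that hydroxylates collagen, and HIF1A (ENSG00000100644.16, chr14:61695513-61748259, plus strand) is the oxygen-regulated factor.

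The promoter windows of 4 genes are shown because their transcripts differed in pattern: CA9 and ANKRD37 differed most between the dnLEF1 and Mock tumours of SW480, EGLN3 had the lowest values relative to Mock in the dnLEF1 tumours of SW620, and BNIP3 was close to undetected throughout. Each window runs from 250 bases before to 50 bases after the RefSeq start of the gene on GRCh38.p14, is written 5′ to 3′ on the strand of the gene, and has in capitals each ACGTG or GCGTG on either strand. The CA9 window is chr9:35673678-35673977 (plus), that of ANKRD37 chr4:185396591-185396890 (plus), that of EGLN3 chr14:33951025-33951324 (minus) and that of BNIP3 chr10:131981874-131982173 (minus).
CA9: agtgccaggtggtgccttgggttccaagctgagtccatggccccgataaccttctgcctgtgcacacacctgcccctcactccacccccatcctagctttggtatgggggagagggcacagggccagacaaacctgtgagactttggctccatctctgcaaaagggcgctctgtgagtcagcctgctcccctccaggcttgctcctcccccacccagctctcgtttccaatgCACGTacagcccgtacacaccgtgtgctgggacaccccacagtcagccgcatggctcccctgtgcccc
ANKRD37: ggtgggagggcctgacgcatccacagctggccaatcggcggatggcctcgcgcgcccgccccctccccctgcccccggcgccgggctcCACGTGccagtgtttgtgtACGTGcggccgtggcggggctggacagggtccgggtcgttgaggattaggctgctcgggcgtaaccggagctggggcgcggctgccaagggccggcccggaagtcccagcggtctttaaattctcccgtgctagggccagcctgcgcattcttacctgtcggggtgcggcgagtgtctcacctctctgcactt
EGLN3: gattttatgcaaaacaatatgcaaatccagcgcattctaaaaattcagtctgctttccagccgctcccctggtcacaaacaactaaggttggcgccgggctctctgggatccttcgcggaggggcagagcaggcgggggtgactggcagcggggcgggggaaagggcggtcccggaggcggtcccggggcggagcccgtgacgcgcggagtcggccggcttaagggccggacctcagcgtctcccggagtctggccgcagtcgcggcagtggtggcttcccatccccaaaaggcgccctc
BNIP3: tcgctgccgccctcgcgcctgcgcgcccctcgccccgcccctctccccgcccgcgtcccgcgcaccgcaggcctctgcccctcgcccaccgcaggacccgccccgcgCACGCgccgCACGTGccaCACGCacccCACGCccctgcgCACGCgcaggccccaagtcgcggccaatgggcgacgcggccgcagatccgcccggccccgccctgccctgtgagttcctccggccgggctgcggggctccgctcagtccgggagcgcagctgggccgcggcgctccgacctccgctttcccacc
CA9 had 1 match, an ACGTG on the opposite strand 18 to 14 bases upstream of the start. ANKRD37 had 3 ACGTG matches, of which 2 overlap on opposite strands, BNIP3 had 2 overlapping ACGTG and 4 GCGTG matches, and EGLN3 had none in this window. RefSeq windows were used for 8 of the 10 genes, and ACGTG was in 4 of them, GCGTG in 4 and either in 7. No window was used for VEGFA, NDRG1 was left out when the windows were picked, and HIF1A is counted by the first of its 2 windows. Of all 35116 RefSeq promoter windows of this length, 21.4% held ACGTG, 36.5% GCGTG and 48.4% either, so a match is a description of the letters alone. BNIP3, with the most matches, was among the lowest of the 10 genes in level.

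The libraries showed between 24665 and 34709 human genes above 0, and TPM keep no read depth, so no counting error can be given. LEF1, which the dominant-negative construct also supplies, rose in both dnLEF1 groups (65.5 TPM in SW480 dnLEF1 against 11.1 TPM in SW480 Mock, and 21.6 TPM in SW620 dnLEF1 against 0.563 TPM in SW620 Mock). LRP6 transcript was not lower in LRP6KO (19.1 ± 1.86 TPM against 15.4 ± 3.90 TPM in Cas9, SD, n = 3 each), and a transcript level does not check the loss of the protein. Of 8 carcinoma epithelial markers KRT8, KRT18 and KRT19 were at or above 1197 TPM in every library, while KRT20 stayed at or under 1.5 TPM and CDH17 at or under 1.17 TPM. The 15 stroma and blood markers summed to 29.4 to 136.5 TPM per library. In SW480 dnLEF1, replicate 1 had the highest value of its group for 7 of the 10 genes, and in SW480 Mock, replicate 2 had it for 9. Over the 10 genes the median within-group SD on the log2(TPM + 1) scale was 0.50 in SW480 and 0.27 in SW620, against 0.43 and 0.31 over all tested genes. Results for SW480 are therefore also given without those 2 libraries, an alternative chosen after the data were seen. The choice came from the values of these same 10 genes, so it is no independent check of them. In bulk tissue, fewer cells of a type and less RNA per cell cannot be told apart.

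Group means of the 10 genes lay between 0.293 TPM (CA12 in SW620 Mock) and 409.1 TPM (CA9 in SW480 dnLEF1). TPM are scaled by transcript length, so levels can be set beside each other. CA9 averaged 409.1 ± 36.8 TPM in SW480 dnLEF1, then 205.1 ± 40.3 in SW620 Mock, 140.4 ± 17.0 in SW620 dnLEF1, 122.0 ± 72.1 in SW480 Mock, 104.0 ± 8.66 in SW620 LRP6KO and 89.1 ± 19.5 in SW620 Cas9 (SD, n = 3 each). In that order the libraries of the top 2 groups did not overlap with those of the next group, while the remaining neighbours overlapped. HIF1A averaged between 79.2 and 93.2 TPM in all 6 groups. ANKRD37, the gene of the ankyrin repeat protein, averaged 143 ± 52.7 TPM in SW480 dnLEF1, 50.2 ± 11.8 in SW480 Mock, 39.5 ± 3.71 in SW620 Mock, 36.2 ± 9.25 in SW620 LRP6KO, 31.4 ± 1.41 in SW620 Cas9 and 27.4 ± 2.34 in SW620 dnLEF1. Of its neighbours in that order the top pair and the bottom pair did not overlap. EGLN3 ranged over 10.6 to 37.8 TPM in SW620 and 10.5 to 40.6 TPM in SW480. P4HA1 ranged over 25.9 to 49.1 TPM in SW620 (median 35.9) and 11.5 to 42.2 TPM in SW480 (median 22.3). VEGFA was between 1.28 and 9.09 TPM in single libraries. CA12 ranged over 0.160 to 0.880 TPM in SW620 and 0.980 to 2.73 TPM in SW480, and BNIP3 over 0.120 to 1.47 TPM in all 18 libraries. BNIP3L, its close relative and also a mitophagy receptor, was at 32.0 to 136 TPM.

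**Figure D1:**
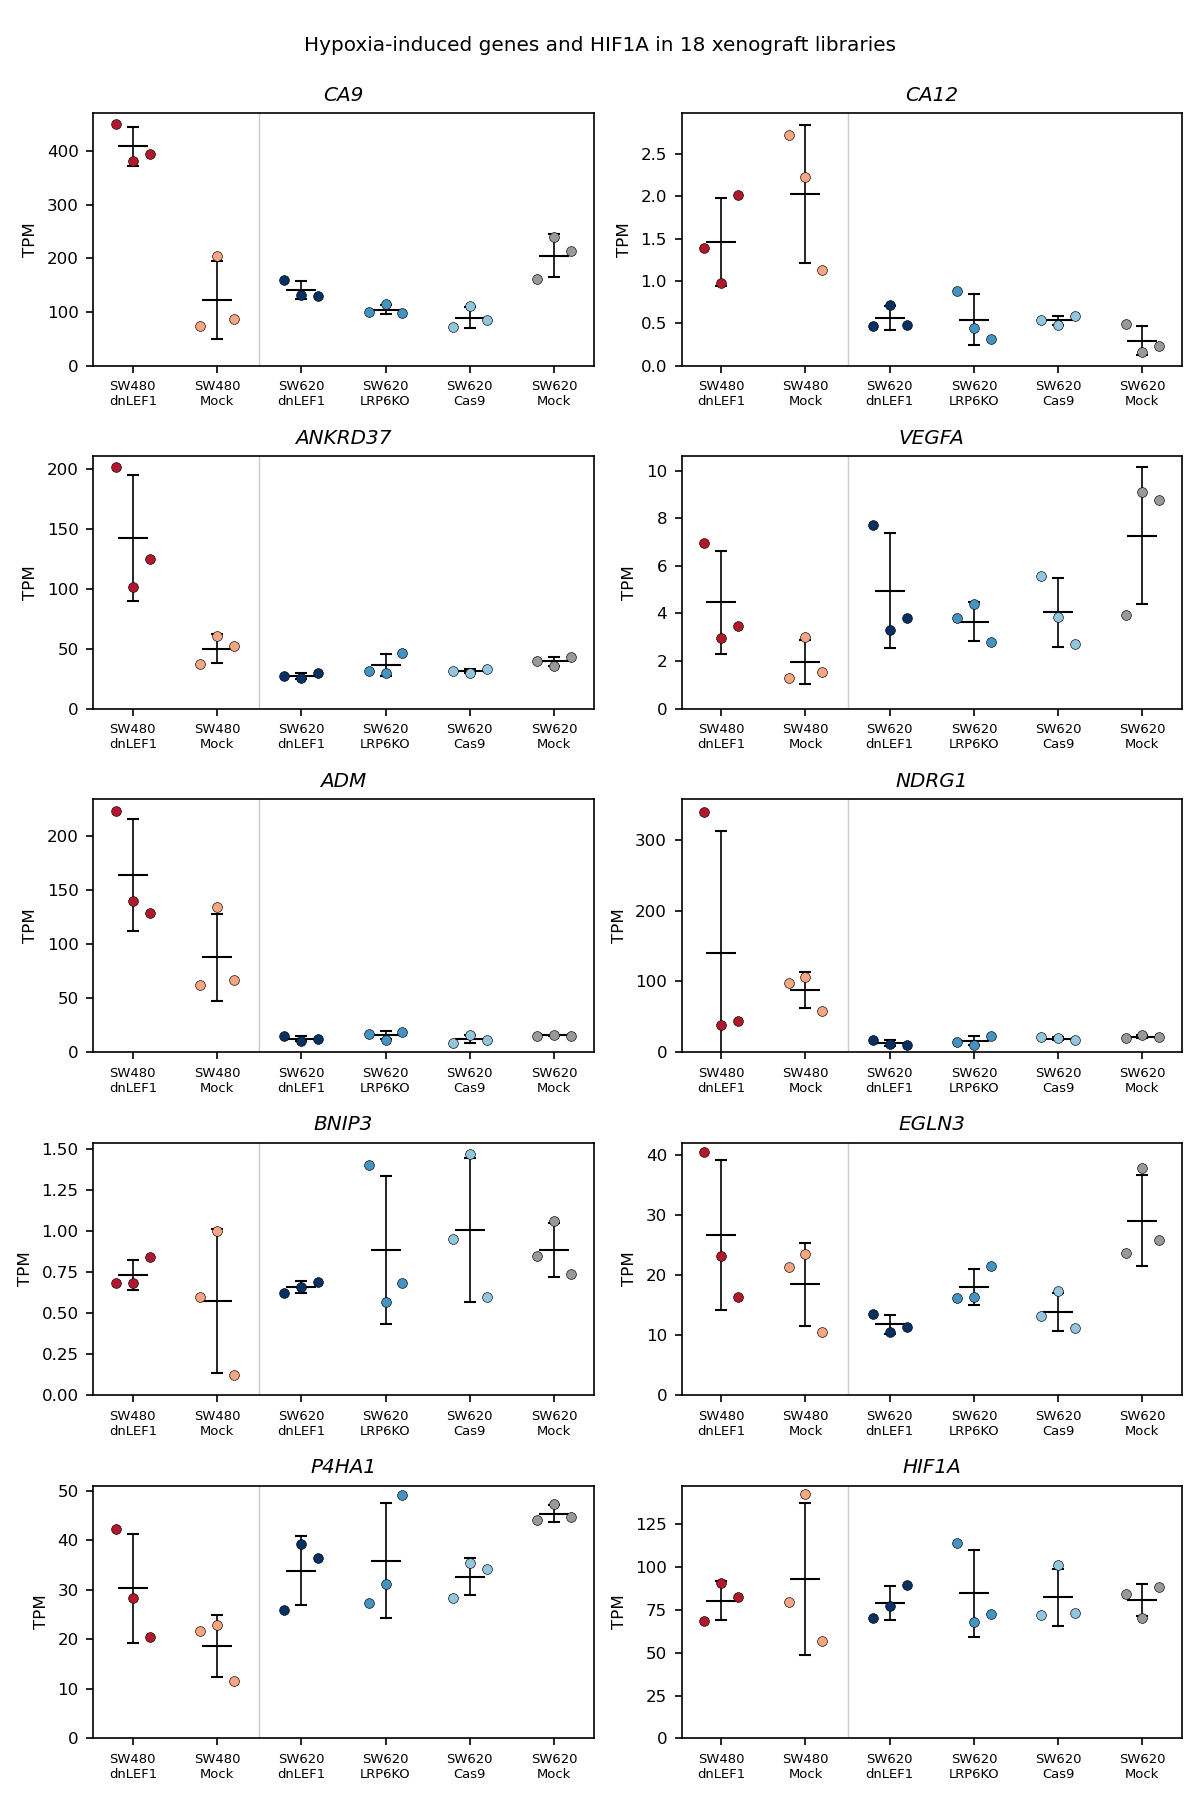
TPM of the 10 genes in each of the 18 xenograft libraries (dots), with the mean and SD of each group of 3 (bars; lower ends below 0 are not drawn) and a grey line between SW480 and SW620. The 3 SW480 dnLEF1 libraries have the highest CA9 values of all libraries, and ADM and NDRG1 lie higher in every SW480 library than in any SW620 library.

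The first comparison asked what dominant-negative LEF1, a block on Wnt target transcription, went along with in SW480 tumours. CA9 and ANKRD37 rose in SW480 dnLEF1 tumours, about 3.69-fold and 2.74-fold on the log2(TPM + 1) scale, which understates changes of low genes. These 2 of 10 genes were called higher by limma at a Benjamini-Hochberg adjusted p of 0.05 over all tested genes, and none lower, beside 1.35% of 22981 tested genes called higher and 2.23% called either way. The libraries of these 2 did not overlap, where 7.17% of all tested genes were higher without overlap. The other 8 genes did not pass, 5 of 10 had an unadjusted p under 0.05 (15% of all tested genes did), and 7 of 10 had log2 differences above 0 (52.8% of all genes). The median log2 difference was 0.58 over the 10 genes and 0.03 over all genes tested.

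CA9 measured 451, 382 and 394 TPM in SW480 dnLEF1 tumours and 73.9, 205 and 87.2 TPM in SW480 Mock tumours. Every dnLEF1 library was above every Mock library, and Mock replicate 2 stood above the other Mock libraries. The log2 difference was 1.88 (SE 0.28, limma adjusted p = 0.00171). ANKRD37 measured 202, 101 and 125 TPM in SW480 dnLEF1 tumours and 37.3, 60.5 and 52.7 TPM in SW480 Mock tumours, again without overlap. The log2 difference was 1.46 (SE 0.23, limma adjusted p = 0.00325). Without SW480 dnLEF1 replicate 1 and SW480 Mock replicate 2 both calls held, with log2 differences of 2.26 for CA9 and 1.32 for ANKRD37. In a limma fit of the 6 SW480 libraries alone neither passed (adjusted p = 0.368 for CA9 and 0.371 for ANKRD37). No other gene passed there either. That fit uses the spread of SW480 alone, while the main fit pools both lines. The within-group SD of log2(TPM + 1) was 0.56 in SW480 and 0.24 in SW620 for CA9, and 0.44 and 0.19 for ANKRD37. Both genes passed in each of the other 12 alternatives, which also pool the lines.

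The vessel signals lay higher on average without passing. ADM measured 223, 139.5 and 129 TPM in SW480 dnLEF1 tumours and 62.3, 134 and 66.4 TPM in SW480 Mock tumours, a log2 difference of 0.94 (SE 0.29, limma adjusted p = 0.118). Only Mock replicate 2 overlapped with the dnLEF1 libraries, and without that library ADM passed (log2 difference 1.29, limma adjusted p = 0.0218). Leaving out the overlapping Mock library widens the gap by itself, so this pass is a description. VEGFA measured 6.94, 2.98 and 3.46 TPM in SW480 dnLEF1 tumours and 1.28, 3.00 and 1.55 TPM in SW480 Mock tumours, where Mock replicate 2 again overlapped. Its log2 difference of 0.87 had a limma adjusted p of 0.27.

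The hydroxylases also overlapped between the groups. P4HA1 measured 42.2, 28.3 and 20.5 TPM in SW480 dnLEF1 tumours and 21.6, 23.0 and 11.5 TPM in SW480 Mock tumours (log2 difference 0.67, limma adjusted p = 0.268). EGLN3 averaged 26.7 ± 12.5 TPM in SW480 dnLEF1 and 18.5 ± 6.96 TPM in SW480 Mock (SD, n = 3 each), with a log2 difference of 0.49. NDRG1 (ENSG00000104419.14, chr8:133237171-133302022, minus strand) was the least even of the 10 genes, at 339, 38.4 and 43.9 TPM in SW480 dnLEF1 tumours and 97.2, 107 and 58.4 TPM in SW480 Mock tumours. Replicate 1 of the dnLEF1 group was above and the other 2 below every Mock library, so that the log2 difference of -0.02 became -1.03 without replicate 1, which did not pass either (limma adjusted p = 0.0715).

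HIF1A transcript measured 68.3, 90.7 and 82.5 TPM in SW480 dnLEF1 tumours and 79.6, 143 and 57.0 TPM in SW480 Mock tumours, with a log2 difference of -0.11 (SE 0.27). The dnLEF1 libraries lay within the range of the Mock libraries. CA12 and BNIP3, both low, had log2 differences of -0.28 and 0.18 with overlapping libraries. The 8 summed epithelial markers came to 13310 to 18110 TPM in SW480 dnLEF1 and 17300 to 21200 TPM in SW480 Mock, and KRT19 fell in dnLEF1 (log2 difference -0.66, limma adjusted p = 0.0147). The 15 stroma and blood markers summed to 90.2 to 94.9 TPM in SW480 dnLEF1, with HBB at 0, and to 50.4 to 136.5 TPM in SW480 Mock, with LUM and HBB at 0. Transcripts of the mitochondrial genome made up 5.61% to 12.1% of TPM in SW480 dnLEF1 and 9.43% to 11.2% in SW480 Mock. The part of these in the CA9 and ANKRD37 results was not tested.

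The same construct in SW620 gave no call among the 10 genes. By limma 0 of 10 passed, beside 0.165% of all tested genes called either way, and 2 of 10 had an unadjusted p under 0.05, EGLN3 and ANKRD37, where 8.1% of all tested genes did. In 7 of the 10 genes (CA9, ANKRD37, ADM, NDRG1, BNIP3, EGLN3 and P4HA1) every SW620 dnLEF1 library lay below every SW620 Mock library, where 16.4% of all tested genes did so. The gaps were narrow for ADM, BNIP3 and CA9. Their highest dnLEF1 and lowest Mock libraries were at 14.97 and 15.04, 0.69 and 0.74, and 160.04 and 161.18 TPM, in that order. In 9 of 10 the log2 difference was below 0, where 64.3% of all genes were. The median log2 difference was -0.45 over the 10 genes and -0.12 over all genes tested.

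EGLN3 had the lowest values relative to Mock, at 13.6, 10.6 and 11.3 TPM in SW620 dnLEF1 tumours and 23.7, 37.8 and 25.8 TPM in SW620 Mock tumours. The log2 difference was -1.21 (SE 0.32) with a limma adjusted p of 0.216, and it passed under array weights alone (-1.31, adjusted p = 0.00869). CA9 measured 160.0, 131 and 130.3 TPM in SW620 dnLEF1 tumours and 161, 240.4 and 214 TPM in SW620 Mock tumours, where replicate 1 of the dnLEF1 group and replicate 1 of the Mock group lay almost level. This was a log2 difference of -0.53 (SE 0.28, limma adjusted p = 0.668). ANKRD37 measured 26.9, 25.3 and 29.9 TPM in SW620 dnLEF1 tumours and 39.7, 35.7 and 43.1 TPM in SW620 Mock tumours, a tight separation on both sides. The log2 difference was -0.51 (SE 0.23, limma adjusted p = 0.592).

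NDRG1 measured 17.4, 11.5 and 9.66 TPM in SW620 dnLEF1 tumours and 19.6, 23.9 and 21.5 TPM in SW620 Mock tumours (log2 difference -0.74, limma adjusted p = 0.795). P4HA1 averaged 33.9 ± 7.04 TPM in SW620 dnLEF1 and 45.4 ± 1.71 TPM in SW620 Mock, and ADM 12.4 ± 2.30 TPM in SW620 dnLEF1 and 15.4 ± 0.560 TPM in SW620 Mock (SD, n = 3 each). VEGFA, the endothelial growth factor, overlapped between the groups, and CA12 was the sole gene of the 10 with a log2 difference above 0 (0.27, at 0.160 to 0.720 TPM). HIF1A transcript averaged 79.2 ± 9.75 TPM in SW620 dnLEF1 and 81.0 ± 9.47 TPM in SW620 Mock, a log2 difference of -0.03 that turns to 0.14 under median-ratio scaling.

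That scaling moved the median log2 difference of all genes by 0.12 in this comparison, and the median of the 10 genes to -0.30. The share of calls that were higher was 34.2% of 38 as fitted and 55.3% of 38 with the scaling. Alongside, the epithelial markers summed to 8740 to 10780 TPM in SW620 dnLEF1 and 15150 to 17070 TPM in SW620 Mock, and all 6 tested ones had log2 differences below 0 (-0.89 to -0.47, of which KRT19 passed). The stroma and blood markers summed to 32.5 to 39.3 TPM in SW620 dnLEF1, with HBB at 0, and 37.5 to 52.9 TPM in SW620 Mock. Mitochondrial transcripts made up 11.4% to 13.8% of TPM in SW620 dnLEF1 and 7.21% to 8.41% in SW620 Mock. Their part in the lower values of the 7 genes was not tested.

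**Figure D2:**
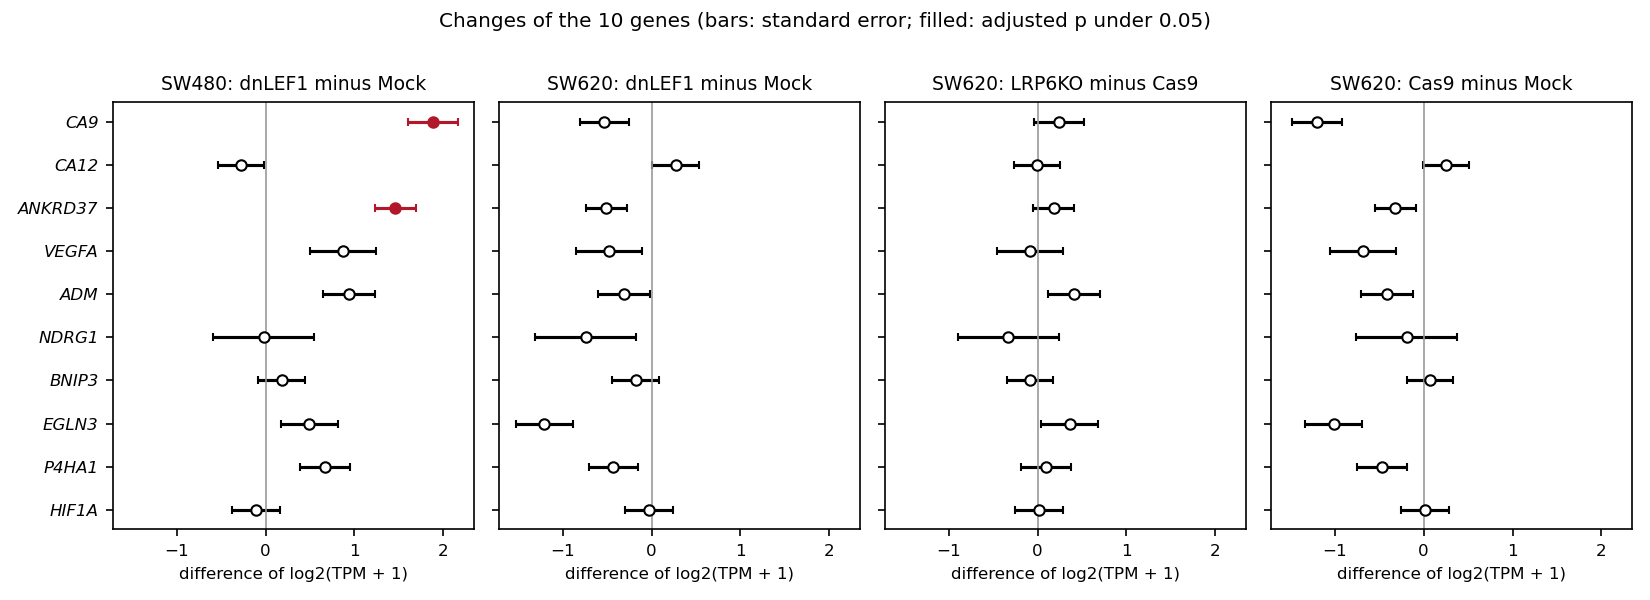
Differences of log2(TPM + 1) of the 10 genes in 4 comparisons, with standard errors (bars) and filled symbols where the limma adjusted p is under 0.05. CA9 at 1.88 and ANKRD37 at 1.46 in SW480 are the sole filled points, and in SW620 dnLEF1 minus Mock 9 of 10 points lie below 0.

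Whether the 2 lines differed in their dnLEF1 change was tested as the SW620 change minus the SW480 change. CA9 and ANKRD37 differed, with dnLEF1 tumours above Mock in SW480 and below Mock in SW620. These 2 of 10 genes were called lower and none higher, beside 0.54% of all tested genes called lower and 0.718% either way. The difference of log2 changes was -2.41 for CA9 (SE 0.39, limma adjusted p = 0.00915) and -1.97 for ANKRD37 (SE 0.33, limma adjusted p = 0.00952). Without the 2 SW480 libraries named above they were -2.79 and -1.84, and both passed. Those libraries were picked from the values of the 10 genes, so this is no independent check. In the same 2 of 10 genes every dnLEF1 library lay above every Mock library in SW480 and below every Mock library in SW620, where 1.24% of all tested genes did so.

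Both missed the threshold when the fit held just these 4 groups (limma adjusted p = 0.0607 for CA9 and 0.0559 for ANKRD37), and ANKRD37 also missed it under median-ratio scaling (-1.70, adjusted p = 0.0518). That scaling moved the median of all genes by 0.19. It changed the share of higher calls to 50% of 108, against 24.8% of 165 as fitted. The median difference of the 10 genes was -1.17, beside -0.17 for all genes, and -0.91 with the scaling.

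The other genes did not pass. The difference was -1.70 for EGLN3 (SE 0.45, limma adjusted p = 0.0946), -1.34 for VEGFA (adjusted p = 0.276), -1.25 for ADM (adjusted p = 0.192) and -1.10 for P4HA1 (adjusted p = 0.241). ADM passed without SW480 Mock replicate 2 (-1.60, adjusted p = 0.0456), and ADM and EGLN3 passed without both SW480 libraries named above (-1.35 and -1.56). Those libraries were picked from the values of the 10 genes, so these passes are descriptions. NDRG1 had -0.72 with an SE of 0.81, which turned to 0.28 without SW480 dnLEF1 replicate 1. HIF1A had 0.08 (SE 0.38), CA12 0.56 and BNIP3 -0.36. In all, 6 of the 10 genes had an unadjusted p under 0.05 here, where 12.7% of all tested genes did, and 8 of 10 differences were below 0, where 62.5% of all genes were.

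**Figure D3:**
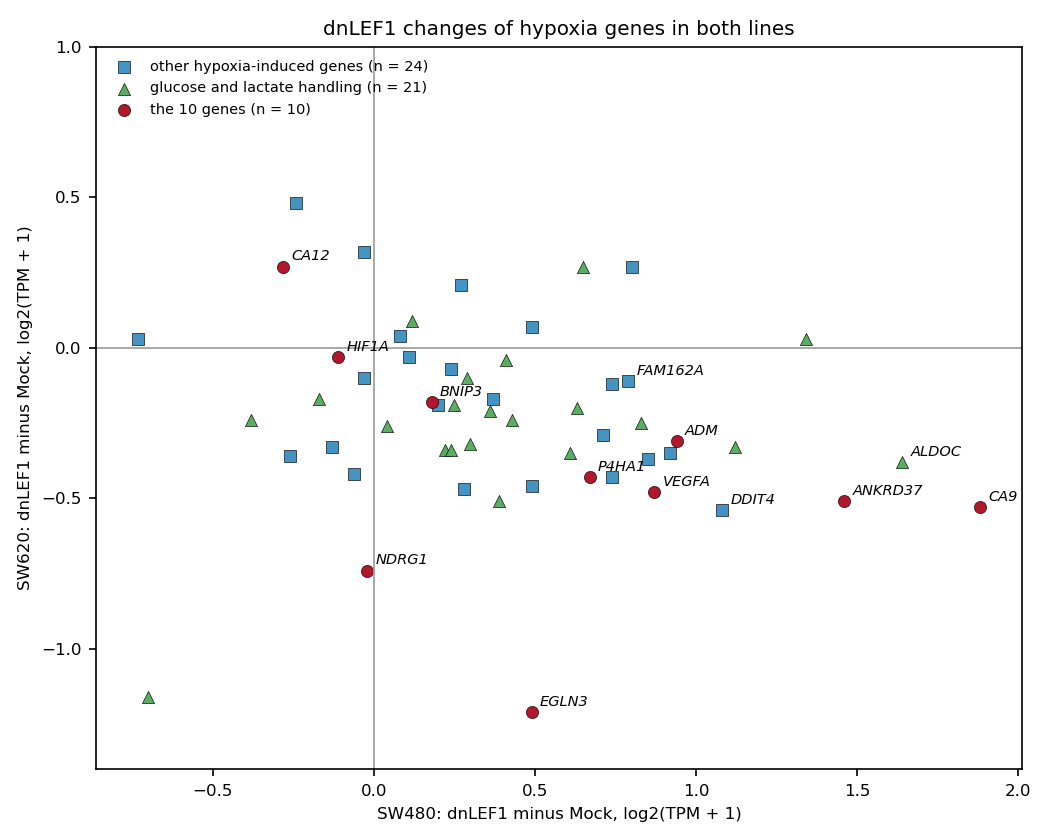
Differences of log2(TPM + 1) between dnLEF1 and Mock tumours in SW480 (horizontal) and SW620 (vertical) for the 10 genes (circles), 21 genes of glucose and lactate handling (triangles) and 24 tested genes of another hypoxia list (squares). CA9, ANKRD37 and ALDOC lie farthest to the right, above 0 in SW480 and below 0 in SW620.

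Tumours labelled LRP6KO, whose LRP6 transcript was not lower, were set against Cas9 tumours of the same line. By limma 0 of 10 genes passed, beside 0% of all tested genes, and 0 of 10 had an unadjusted p under 0.05, where 3.33% of all tested genes did. CA9 measured 99.3, 114 and 98.6 TPM in SW620 LRP6KO tumours and 72.2, 110.5 and 84.7 TPM in SW620 Cas9 tumours, which overlapped. Its log2 difference was 0.24 (SE 0.28), which does not show that the groups are alike. ANKRD37 measured 31.9, 30.0 and 46.9 TPM in SW620 LRP6KO tumours and 31.3, 30.0 and 32.8 TPM in SW620 Cas9 tumours, where LRP6KO replicate 3 stood above the rest. Its log2 difference of 0.18 became -0.02 without that library. The largest differences were 0.41 for ADM and -0.33 for NDRG1, and libraries overlapped in all 10 genes. The median was 0.06 over the 10 genes and 0.07 over all genes.

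The 2 kinds of SW620 control tumour were also compared. Cas9 and dnLEF1 tumours are both set against the same Mock libraries, so the 2 sets of differences share those 3 libraries. By limma 0 of 10 genes passed for Cas9 against Mock, beside 0% of all tested genes, with 2 of 10 at an unadjusted p under 0.05 (CA9 and EGLN3), where 5.02% of all tested genes did. In 4 of 10 (CA9, ANKRD37, EGLN3 and P4HA1) every Cas9 library lay below every Mock library, where 7.81% of all tested genes did, and 7 of 10 log2 differences were below 0, where 53.9% of all genes were.

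CA9 measured 72.2, 110.5 and 84.7 TPM in SW620 Cas9 tumours and 161, 240.4 and 214 TPM in SW620 Mock tumours, clearly apart. The log2 difference was -1.20 (SE 0.28, limma adjusted p = 0.462). EGLN3 measured 13.2, 17.4 and 11.1 TPM in SW620 Cas9 tumours and 23.7, 37.8 and 25.8 TPM in SW620 Mock tumours (log2 difference -1.01, limma adjusted p = 0.734). Both passed under array weights, which lower the weight of uneven libraries (-1.30 and adjusted p = 0.0135 for CA9, -1.15 and 0.0399 for EGLN3). ANKRD37 averaged 31.4 ± 1.41 TPM in SW620 Cas9 and 39.5 ± 3.71 TPM in SW620 Mock, and P4HA1 32.7 ± 3.80 TPM in SW620 Cas9 and 45.4 ± 1.71 TPM in SW620 Mock (SD, n = 3 each). Side by side, the log2 differences from Mock were -0.53 in dnLEF1 and -1.20 in Cas9 for CA9, and -1.21 in dnLEF1 and -1.01 in Cas9 for EGLN3. Mitochondrial transcripts were 9.54% to 13.7% of TPM in SW620 Cas9, and the epithelial markers summed to 11030 to 14330 TPM. Both ranges lie apart from the SW620 Mock ranges given above, and their part in these values was not tested.

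Between the Mock tumours of the 2 lines, 3 of the 10 genes were higher in SW620 and 3 lower. The higher ones were CA9, VEGFA and P4HA1, beside 10.9% of all tested genes, and the lower ones CA12, ADM and NDRG1, beside 12.9% (23.9% either way). The libraries of VEGFA, P4HA1 and EGLN3 were higher in SW620 without overlap (15.7% of all tested genes), and those of CA12, ADM and NDRG1 lower (19.7%). CA12 passed the filter through SW480 alone, the line in which it is higher, so its place in these counts is a description. SW620 was grown from a lymph node metastasis and SW480 from the primary tumour of the same patient, so this contrast compares a pair of related lines and not treatments. The median log2 difference of the 10 genes was 0.10, against -0.14 for all genes. Of all calls 45.7% were higher as fitted.

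ADM had the widest gap, at 15.0, 16.0 and 15.1 TPM in SW620 Mock tumours and 62.3, 134 and 66.4 TPM in SW480 Mock tumours. The log2 difference was -2.35 (SE 0.29, limma adjusted p = 1.73e-05) and it passed in 13 of 13 alternatives. NDRG1 measured 19.6, 23.9 and 21.5 TPM in SW620 Mock tumours and 97.2, 107 and 58.4 TPM in SW480 Mock tumours, with no overlap. Its log2 difference was -1.92 (SE 0.57, limma adjusted p = 0.021), and it was lost when any of 4 libraries was left out: SW480 Mock replicate 1 (-1.82, adjusted p = 0.0589) or 2 (-1.76, 0.0697), or SW620 Mock replicate 1 (-1.86, 0.0638) or 3 (-1.92, 0.0528). CA12 measured 0.490, 0.160 and 0.230 TPM in SW620 Mock tumours and 2.73, 2.23 and 1.13 TPM in SW480 Mock tumours, low in both lines. Its log2 difference was -1.20, given as a description since CA12 passed the filter through SW480 alone.

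P4HA1 measured 44.1, 47.3 and 44.7 TPM in SW620 Mock tumours and 21.6, 23.0 and 11.5 TPM in SW480 Mock tumours, a log2 difference of 1.29 (SE 0.28, limma adjusted p = 0.00285). VEGFA measured 3.95, 9.09 and 8.76 TPM in SW620 Mock tumours and 1.28, 3.00 and 1.55 TPM in SW480 Mock tumours, a log2 difference of 1.46 (SE 0.37, limma adjusted p = 0.00767) that missed the threshold in a fit of these 6 libraries alone (adjusted p = 0.0597). These 2 genes did not overlap between the lines. CA9 did overlap, because SW480 Mock replicate 2 (205 TPM) lay above SW620 Mock replicate 1 (161 TPM). Its log2 difference was 0.88 (SE 0.28, limma adjusted p = 0.0303). The CA9 call was lost without SW480 Mock replicate 1 (0.59, adjusted p = 0.144) or 3 (0.71, 0.112), and without SW620 Mock replicate 2 (0.75, 0.115) or 3 (0.84, 0.0836), and in 2 other alternatives of the 13. Without the 2 SW480 libraries named above it was 1.32 and passed. ANKRD37 (-0.31), EGLN3 (0.67), BNIP3 (0.30) and HIF1A (-0.10) did not pass.

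The line difference in ADM and NDRG1 ran through every group: ADM was 8.33 to 18.9 TPM in the 12 SW620 libraries and 62.3 to 223 TPM in the 6 SW480 libraries, and NDRG1 9.65 to 23.9 TPM in SW620 and 38.4 to 339 TPM in SW480. CA12 was likewise lower in every SW620 library than in any SW480 library.

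Transcripts of the oxygen-sensing machinery, a list of 10 genes beside the members, gave no call with dnLEF1, LRP6KO or Cas9 (0 of 10 by limma in each, with 0 or 1 at an unadjusted p under 0.05). Of all tested genes 0% to 2.23% were called in these comparisons, and 3.33% to 15% had an unadjusted p under 0.05. A count of 0 of 10 is near those called shares. Between the Mock tumours 2 of 10, EPAS1 and EGLN2, were called lower in SW620 and 1, VHL, higher. Of all tested genes 12.9% were called lower and 10.9% higher (23.9% either way), so these counts are near those shares. EPAS1, the other HIF alpha subunit, measured 1.30, 0.170 and 0.220 TPM in SW620 Mock tumours and 18.5, 22.3 and 16.7 TPM in SW480 Mock tumours, and it did not exceed 1.54 TPM in any SW620 library. It reached 1 TPM in 2 SW620 libraries only, so it passed the filter through SW480, the line in which it is higher, and its log2 difference of -3.75 is a description. VHL, which recognises hydroxylated HIF alpha subunits, averaged 10.6 ± 1.04 TPM in SW620 Mock and 4.11 ± 0.880 TPM in SW480 Mock, and EGLN2, another prolyl hydroxylase, 50.7 ± 2.54 TPM in SW620 Mock and 73.6 ± 6.59 TPM in SW480 Mock (SD, n = 3 each). In SW480 dnLEF1 EPAS1 measured 6.66, 5.00 and 10.2 TPM, below all SW480 Mock libraries, with a log2 difference of -1.32 that did not pass (limma adjusted p = 0.0602).

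Of 21 genes of glucose and lactate handling, a set with many HIF targets, 18 had log2 differences above 0 in SW480 dnLEF1 tumours (52.8% of all genes did). Of the 21, 1 was called, beside 2.23% of all tested genes called either way. This was ALDOC, aldolase C of glycolysis, at 99.6, 81.5 and 70.4 TPM in SW480 dnLEF1 and 23.6, 39.4 and 18.6 TPM in SW480 Mock (log2 difference 1.64, SE 0.25, limma adjusted p = 0.00218), and it missed the threshold in a fit of the SW480 libraries alone (adjusted p = 0.313). In SW620 0 of 21 passed by limma, beside 0.165% of all tested genes, and 4 had an unadjusted p under 0.05, where 8.1% of all tested genes did. In 18 the log2 difference was below 0, where 64.3% of all genes were. ALDOC again differed between the lines in its change (-2.02, SE 0.35, limma adjusted p = 0.014, and 0.0768 with these 4 groups alone). Between the Mock tumours 9 of 21 were higher in SW620 and 1 lower, beside 10.9% of all tested genes higher and 12.9% lower. Those with the smallest p were SLC16A3, the lactate exporter (82.4 TPM in SW620 Mock against 23.6 TPM in SW480 Mock, log2 difference 1.75), PGAM1 (0.92), ENO1 (0.77) and PGK1 (0.94, adjusted p = 0.0585 with the Mock groups alone). The 1 lower was SLC2A1, the main glucose transporter, at -0.73, named here after its value was seen.

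Among 25 other hypoxia-induced genes, 24 were tested. In SW480 dnLEF1 1 of 24 was called, beside 2.23% of all tested genes called either way. This was FAM162A, a mitochondrial protein (log2 difference 0.79, limma adjusted p = 0.0174). The FAM162A call was lost without SW480 Mock replicate 2 (0.66, adjusted p = 0.0536) or SW480 dnLEF1 replicate 2 (0.76, 0.0638), and without both SW480 libraries named above (0.53, 0.0739). It was also lost with scaling (0.68, 0.154), array weights (0.64, 0.0941) or the SW480 groups alone (0.457). In SW620 dnLEF1 0 of 24 passed, beside 0.165% of all tested genes, with 1 at an unadjusted p under 0.05, where 8.1% of all tested genes were. Between the Mock tumours 4 of 24 were higher in SW620 and 5 lower, beside 10.9% of all tested genes higher and 12.9% lower. IGFBP3, a secreted binder of insulin-like growth factors, was at 3.14 ± 0.756 TPM in SW620 Mock and 341.9 ± 93.4 TPM in SW480 Mock (SD, n = 3 each). P4HA2, a catalytic subunit like P4HA1, went the other way from P4HA1 (26.0 TPM in SW620 Mock against 137 TPM in SW480 Mock, log2 difference -2.37). PLOD2, a collagen lysyl hydroxylase, was higher in SW620 (7.59 TPM in SW620 Mock against 0.467 TPM in SW480 Mock). PLOD2 passed the filter through SW620 alone, so its call is a description.

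Of 13 other carbonic anhydrases 8 were tested, and 0 were called by limma in the dnLEF1, LRP6KO and Cas9 comparisons, with at most 1 at an unadjusted p under 0.05. Of all tested genes 0% to 2.23% were called in these comparisons, and 3.33% to 15% had an unadjusted p under 0.05. CA6, a secreted form, was at 1.38 TPM in SW620 Mock and 37.9 TPM in SW480 Mock (log2 difference -4.02, limma adjusted p = 1.6e-07), CA8 at 0.543 and 2.60 TPM and CA11 at 4.22 and 13.4 TPM in the same order. All 3 were called lower, of 8 tested, beside 12.9% of all tested genes called lower. CA8 was under 1 TPM in every SW620 library and passed the filter through SW480 alone, so its call is a description. Leaving out SW620 Mock replicate 3 (-1.14, adjusted p = 0.0793) or fitting the Mock groups alone (0.0606) ended the CA11 call. CA8 and CA11 lack catalytic activity. No library had more than 93.2 TPM of any of these 13 (CA6 in SW480 dnLEF1), and the CA9 mean was above theirs in each group.

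The genes whose pattern was nearest to that of CA9 were ranked by Pearson correlation over 18 libraries, after the mean of each line was taken off, among 10775 genes with a mean of at least 5 TPM. The 5 nearest were ALDOC (r = 0.931), SPAG4 (0.924), DDIT4 (0.883), YIPF2 (0.867) and MTPN (0.856). SPAG4, a protein of the nuclear envelope, averaged 118 TPM in SW480 dnLEF1 and 39.8 TPM in SW480 Mock, but between 6.28 and 9.66 TPM in the 4 SW620 groups. DDIT4, an inhibitor of mTORC1 signalling, averaged 340.3 ± 128 TPM in SW480 dnLEF1 and 160.4 ± 59.8 TPM in SW480 Mock, and 125 ± 24.1 TPM in SW620 dnLEF1 and 180.3 ± 17.5 TPM in SW620 Mock (SD, n = 3 each). Among the 10 genes themselves ADM ranked 21 (0.779), ANKRD37 45 (0.749), P4HA1 251 (0.625), EGLN3 459 (0.569), NDRG1 4828 (0.136) and HIF1A 5031 (0.121). The libraries share their groups, so these values hold group differences as well as variation between tumours, and ANKRD37 had r = 0.921 in the 6 SW480 libraries but 0.207 in the 12 SW620 libraries. CA12, VEGFA and BNIP3 were under the level needed to be ranked.

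**Figure D4:**
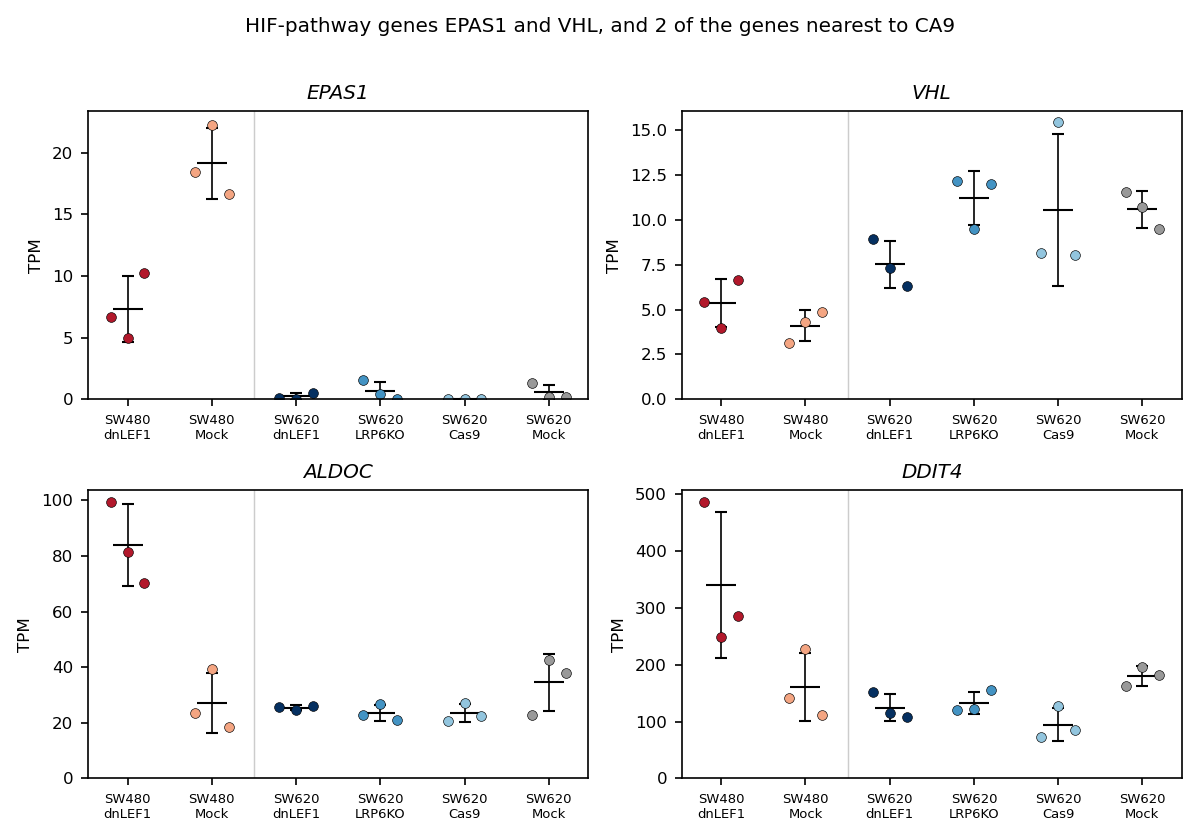
TPM of EPAS1, VHL, ALDOC and DDIT4 in each of the 18 xenograft libraries (dots), with the mean and SD of each group of 3 (bars; lower ends below 0 are not drawn). EPAS1 is at or under 1.54 TPM in all SW620 libraries, and ALDOC is highest in the 3 SW480 dnLEF1 libraries.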

How the data were processed

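The authors deposited TPM per gene for human transcripts of 18 xenograft libraries, which sum to 1000000 in each library. Per the submitters' processing notes, reads were handled with Trimmomatic 0.35, Bowtie 1.2 and RSEM 1.2.31 with the builds hg38 and mm10, and how mouse reads were kept apart is not given in the sources used here. The 3 mouse-only PBS samples and the mouse table were not used here. Human identifiers were joined to GENCODE v29 symbols, without their version where needed (58216 of 58381 matched), and 45 second copies of pseudoautosomal genes, at 0 throughout, were left out.

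The test was limma 3.58.1 (R 4.3.3) on log2(TPM + 1) with its trend option, over 22981 genes that reached 1 TPM or more in 3 or more libraries. It fitted 1 mean for each of the 6 groups and, for each gene, 1 spread shared by all groups. Benjamini-Hochberg adjustment ran over every gene tested in a comparison, and a gene was called where the adjusted p was under 0.05. Scripts were tested on simulated data. Alternatives were a pseudocount of 0.1, no filter, median-ratio scaling, the groups of the comparison alone, array weights, a replicate block and each library left out. The members and lists were chosen with earlier results of these data known. Genes named beside the members were up to 4 called genes per list and comparison with the smallest p, and the 5 nearest to CA9; 1 gene that this rule names is not reported here. Promoter windows came from RefSeq (GRCh38.p14).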

Additional observations from a re-analysis of the deposited data

Results flagged for a closer look

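All results here are differences between the lines in the dnLEF1 change, given as the SW620 change minus the SW480 change on the log2(TPM + 1) scale. The test of the difference itself passed for CA9 (-2.41), ANKRD37 (-1.97) and ALDOC (-2.02), by limma.

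For 7 further genes every dnLEF1 library lay above every Mock library in SW480 and below every Mock library in SW620, but the test of the difference did not pass. These are 7 of 63 genes searched in 4 lists chosen with earlier results of these data known, and 1.24% of all tested genes show the pattern. In glycolysis these were PFKL (-0.62), ALDOA (-0.57) and PGK1 (-0.96). Among other hypoxia-induced genes they were BNIP3L (-1.22), DDIT4 (-1.62), KDM3A (-1.26), a histone demethylase, and FAM162A (-0.91). Their limma adjusted p ran between 0.0679 for DDIT4 and 0.192 for PFKL and ALDOA. Some of the gaps were narrow. In SW620 the highest dnLEF1 and lowest Mock libraries were at 78.23 and 78.82 TPM for FAM162A, and at 2032.28 and 2046.36 TPM for ALDOA. In SW480 the lowest dnLEF1 and highest Mock libraries were at 104.87 and 103.01 TPM for PFKL. No explanation of these differences was tested.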

How the results depend on the processing

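Counts of called members were within 1.5 times the reported one in 33 of 39 settings other than leaving out 1 library. In SW480 (dnLEF1 against Mock) the groups of the comparison alone gave 0. In SW620 array weights gave 1 for dnLEF1 against Mock and 2 for Cas9 against Mock. For the difference between lines, median-ratio scaling gave 1, the 4 groups alone 0, and the 2 SW480 libraries left out together 4. Leaving out 1 library at a time gave 2 to 3 called members in SW480 dnLEF1, 2 to 3 for the difference, 4 to 5 between the Mock tumours, and 0 in each of the other 3 comparisons. Fits without a library hold fewer libraries, and why the counts moved was not tested.

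With the replicate number as a block, the counts of called members stayed at 2, 0, 2, 0, 0 and 6 in the order of the comparisons reported. Deviations of same-numbered libraries correlated at -0.18 to 0.22, so the numbers do not pair the libraries. No call of a member was changed by the block.

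Directions that turned belong to values that were not called. Besides values near 0 these include NDRG1 in the difference between lines, at -0.72 as reported. Under array weights these were VEGFA in LRP6KO against Cas9 (0.02), BNIP3 in Cas9 against Mock (-0.05) and HIF1A in SW620 dnLEF1 (0.0), LRP6KO against Cas9 (-0.02) and Cas9 against Mock (-0.05). Under median-ratio scaling they were HIF1A in SW620 dnLEF1 (0.14) and in LRP6KO against Cas9 (-0.04). Without the 2 SW480 libraries they were NDRG1 in the difference (0.12) and HIF1A in SW480 dnLEF1 (0.36), the difference (-0.39) and the Mock tumours (0.26). Leaving out 1 library turned some values within these ranges of the log2 difference. In LRP6KO against Cas9 these were CA12 -0.16 to 0.10, ANKRD37 -0.02 to 0.29, VEGFA -0.30 to 0.12, BNIP3 -0.28 to 0.07, P4HA1 -0.15 to 0.26 and HIF1A -0.21 to 0.18. In Cas9 against Mock they were BNIP3 -0.09 to 0.22 and HIF1A -0.15 to 0.10. In SW480 dnLEF1 they were NDRG1 -1.03 to 0.53, BNIP3 -0.05 to 0.37 and HIF1A -0.41 to 0.24. HIF1A ran from -0.13 to 0.05 in SW620 dnLEF1, -0.28 to 0.38 in the difference and -0.40 to 0.26 between the Mock tumours, and NDRG1 from -1.27 to 0.28 in the difference.

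Counts over all genes moved more. They were 512 in SW480 dnLEF1 (0 with its groups alone, 261 with array weights, 333 with a pseudocount of 0.1, 258 to 1214 without 1 library, 1387 without both SW480 libraries), and 38 in SW620 dnLEF1 (19 with its groups alone, 21 with a pseudocount of 0.1, 394 with array weights, 17 at the lowest without 1 library). The difference had 165 (36 with its groups alone, 108 scaled, 358 with array weights, 66 to 801 without 1 library, 1093 without both). Cas9 against Mock had 0 (101 with array weights, at most 1 otherwise) and LRP6KO against Cas9 0 (at most 1). Shares of higher calls under scaling were 45.8% in SW480 dnLEF1, against 60.7% as fitted, and 51.5% between the Mock tumours. Each group holds 3 libraries, TPM carry no depth, and BNIP3, CA12 and VEGFA lie at levels where the pseudocount shapes the difference.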
